A study of Arabidopsis thaliana with 12 samples.

Results

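The comparison set apices of Arabidopsis thaliana at day 2 after dexamethasone against apices of the same line at day 0. A gene entered it when it reached 5 FPKM (fragments relative to transcript length and to the fragments mapped in the group) in either group, after rows that repeat an identifier had been summed. Of 33559 different identifiers, 15355 did, which is 45.8%, and 14613 of them reached that level in both groups. Both groups carried ap1-1, cal-1 and the 35S::AP1:GR transgene in Landsberg erecta, a background that itself lacks a working ERECTA gene. The viral 35S promoter drives the AP1-GR fusion broadly and not in the pattern of AP1, and dissected cauliflower heads of the main inflorescence were harvested, so each sample holds many meristems of different age. Day 0 apices were untreated, and day 2 apices had received 10 µM dexamethasone with 0.015% Silwet, pipetted onto the heads and repeated once after 30 min. No mock-treated apices were used here, so the effect of active AP1-GR and that of dexamethasone, wetting or elapsed time cannot be told apart. Wild-type rosette leaves and wild-type inflorescences of the same series are given only as levels beside the apices. Plant age at harvest and the hour of sampling are not stated by the labels.

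Each group had 3 libraries, but the table holds 1 merged value per gene and group. Therefore no spread, standard error or p-value exists for any value below, and none of the differences has a replicate check. A gene was called higher or lower by a rule of size: log2 of (FPKM + 1) at day 2 minus the same at day 0 had to be at least 1 or at most -1. A fold is the ratio of the FPKM values themselves. In bulk apices, fewer cells of a type and less RNA per cell cannot be told apart.

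APETALA1 (AP1) is a MADS-domain transcription factor that turns a young meristem on the flank of the inflorescence into a flower, and CAULIFLOWER (CAL) is its close relative. Without both, meristems keep forming further meristems, which makes the cauliflower head. Fused to the steroid-binding domain of a glucocorticoid receptor (GR), AP1 stays inactive until dexamethasone is given, after which flowers start to form across the head at about the same time. In young flowers the B-class genes AP3 and PI, the C-class gene AG and the SEP cofactors then specify the organs, whereas TFL1 keeps the inflorescence from becoming a flower.

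By the rule, 182 genes were higher at day 2, which is 1.19% of the 15355, and 366 were lower, which is 2.38%. Together they made up 3.57%, and 13682 of the 15355 (89.1%) lay within 0.5 of 0, with a median log2 difference of -0.004. Counts of called genes in the lists below are to be read against these shares of all genes compared. Counting only nuclear protein-coding genes that were above 0 at both times, 14935 in all, 151 were higher (1.01%) and 316 lower (2.12%), together 3.13%. A log2 difference of 3 or more was reached by 9 of these on the higher side and by 2, LSH1 and MIOX4, on the lower side. Of the 182 higher genes, 100 reached 5 FPKM at day 2 only and so entered the comparison through the group where they were high, as did 152 of the 366 lower genes through day 0. The median level of the 151 higher genes was 4.36 FPKM in leaves and 12.7 FPKM in inflorescences, and that of the 316 lower genes was 47.0 and 18.5 FPKM. At least 5 FPKM in leaves was reached by 47.7% of the higher genes, 80.7% of the lower genes and 86.5% of all nuclear protein-coding genes compared.

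**Figure D1:**
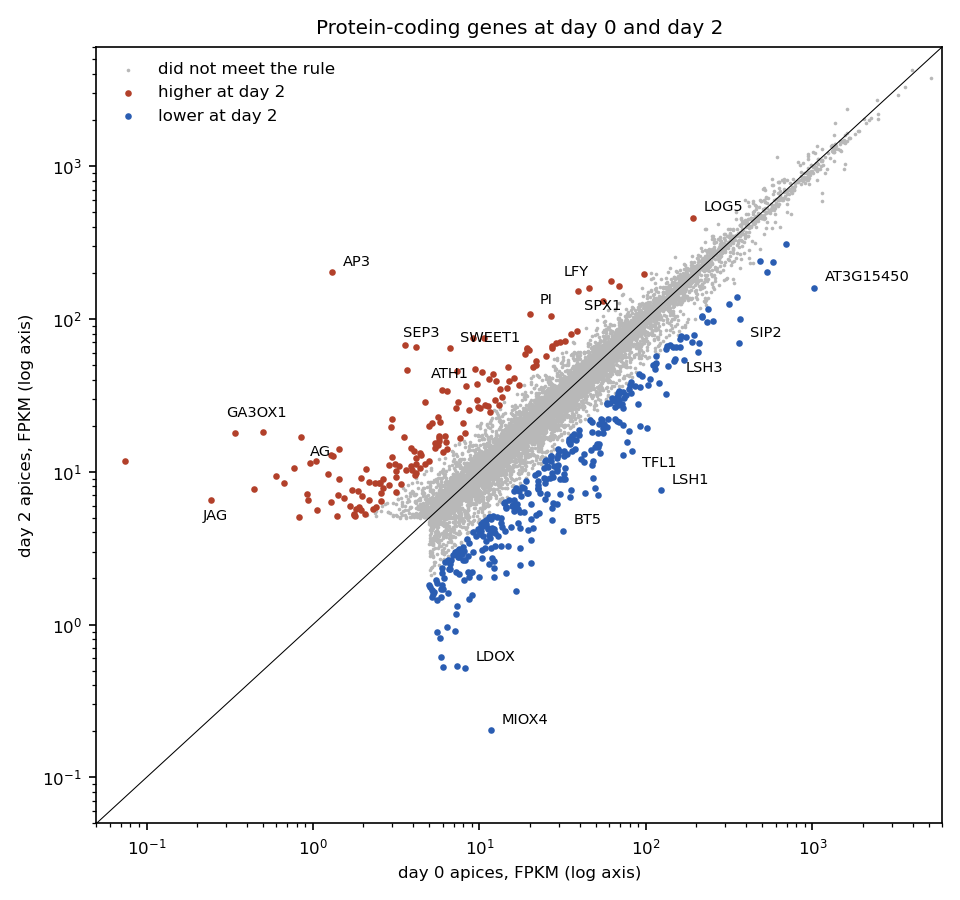
FPKM of protein-coding genes above 0 in both groups, at day 0 (x axis) and day 2 (y axis), both on log axes, with 1 point per gene. Genes called higher are red and genes called lower are blue; AP3 lies at 1.31 and 202 FPKM, and LSH1 at 123 and 7.58 FPKM.

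The tissue was checked against marker genes. All 7 shoot meristem markers, STM, KNAT1, CLV3, CLV1, WUS, ATH1 and PNY, reached 5 FPKM in both groups and summed to 434.5 FPKM before and 515 FPKM after dexamethasone, while the leaf sum was 45.2 FPKM. Of 6 tapetum and pollen markers and 7 xylem and fibre markers none reached 5 FPKM at either time, with SND1 listed at 0 in both groups and GRP17 at day 2. Mesophyll markers were present: the 8 genes, RBCS1A with 2493 and 2029 FPKM in front, summed to 3769 FPKM at day 0 and 2878 FPKM at day 2, and none of the 8 met the rule. In leaves RBCS1A is listed at 0, so the leaf sum is not used. The 5 epidermis markers summed to 2825 and 2636 FPKM.

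AP1 and CAL transcripts differed little between the days, whereas floral organ identity genes did. AP1 had 659 FPKM before and 813 FPKM after dexamethasone, a value that does not separate transgene from mutated gene, and CAL stood at 16.8 and 14.6 FPKM. Among the 16 floral identity genes 9 met the rule, all with higher values, and the list's median log2 difference was 1.32, against -0.004 over all genes compared. AP3 went from 1.31 to 202 FPKM, a 154-fold difference, and had 173 FPKM in inflorescences. Its partner PI, already at 20 FPKM before dexamethasone, had 107 FPKM after it, 5.34-fold more. AG had 16.9 against 0.849 FPKM and SEP3 65.2 against 4.14 FPKM, with 58.3 and 207 FPKM in inflorescences. LFY, the regulator of floral meristem identity, and its coregulator UFO had another order: LFY had 158 against 45.2 FPKM and UFO 64.1 against 19.4 FPKM, but wild-type inflorescences held only 3.31 and 0.673 FPKM. The other 3 higher genes were AP2 with 63.2, SEP1 with 13.6 and SEP2 with 83.2 FPKM at day 2. All 9 calls held with a pseudocount of 5, and with 0.1, which can only enlarge a difference.

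Many listed genes that act later in organs were still low. JAG and NUB, paralogous zinc-finger genes that promote growth of floral organs, were 27.1-fold and 11.9-fold higher: JAG had 6.57 against 0.243 FPKM and NUB 11.5 against 0.963 FPKM. RBE, a petal gene, stood at 2.74 FPKM against 0.0678 FPKM and so stayed under the level needed to be compared, as did SUP at 0.362 FPKM. Of the other MADS-box genes, 13 of 27 stayed under 5 FPKM, among them the ovule and carpel genes SHP1, SHP2 and STK at no more than 0.975 FPKM. Only AGL15 of the 14 compared met the rule, with 8.59 against 2.18 FPKM, and not with a pseudocount of 5. The 6 carpel and ovule markers, SHP1, SHP2, STK, CRC, INO and SPT, were not all low. Together they summed to 54.6 FPKM at day 0 and 70.1 FPKM at day 2. At day 0, 2 of the 6 reached 5 FPKM, and at day 2, 1 did. None of the 6 differed by the limit of the rule. Of the stamen and meiosis genes 13 of 18 stayed under 5 FPKM, and none of the remaining 5 was called.

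Of 17 listed KNOX and BELL genes, regulators of the meristem, 13 could be compared, and of these only ATH1 met the rule. It encodes a BELL homeodomain protein that works with KNOX proteins in the shoot apex, and stood at 33.9 FPKM at day 2, 5.30-fold higher than the 6.4 FPKM at day 0, with 4.36 FPKM in leaves and 11.7 FPKM in inflorescences. KNATM, a KNOX-type gene outside the list, was lower at 2.05 against 12.1 FPKM. The other 12 compared genes of the list did not meet the rule. Among them STM stood at 195 and 217 FPKM, KNAT1 at 103 and 128 FPKM, PNY at 87.8 and 84.6 FPKM and PNF at 39.1 and 41.2 FPKM. MADS proteins such as AP1 bind CArG boxes, and ATH1 is 1 of 3 higher genes with such a box in the 250 bases before the annotated start. Its window is shown with the box in capitals, 64 bases before the start, with that of FAF1, 1 of 4 lower genes with a box, described further on. The windows are RefSeq annotation on the Columbia genome TAIR10.1, not Landsberg erecta: chr4:15918154-15918403 on the minus strand and chr4:1255894-1256143 on the plus strand.
ATH1: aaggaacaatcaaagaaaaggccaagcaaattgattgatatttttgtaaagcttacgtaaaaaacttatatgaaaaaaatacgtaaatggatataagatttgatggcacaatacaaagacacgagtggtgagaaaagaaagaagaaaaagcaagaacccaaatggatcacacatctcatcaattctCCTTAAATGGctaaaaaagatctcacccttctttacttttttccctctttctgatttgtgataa
FAF1: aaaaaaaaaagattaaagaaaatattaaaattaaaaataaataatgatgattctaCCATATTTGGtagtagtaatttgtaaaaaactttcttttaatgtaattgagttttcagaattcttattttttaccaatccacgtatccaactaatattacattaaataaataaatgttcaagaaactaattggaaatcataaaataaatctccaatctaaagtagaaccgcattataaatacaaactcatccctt

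Over all genes the box was no more frequent among called genes. It was found, on either strand, in 3 of 155 windows of higher genes (1.94%) and in 4 of 324 windows of lower genes (1.23%), against 2.7% of the 14946 windows of protein-coding genes compared and 2.55% of all 26692. Another higher gene with a box was AT1G23110, at 17.95 against 0.339 FPKM. The windows of AP3, PI, AG and SEP3 held no match, which says only that these letters are not in these 250 bases.

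At organ boundaries and in young primordia a few genes were higher and their relatives were not. CUC1, a NAC gene that separates organs, stood at 62.6 against 19.8 FPKM, while CUC2 stood at 29.3 against 18.1 FPKM and CUC3 at 36.7 against 38.8 FPKM. CUC1 was the only 1 of 11 boundary genes to meet the rule. DRNL, an AP2-type gene active in founder cells, stood at 39.3 against 12.6 FPKM and its paralog DRN at 7.196 against 9.32 FPKM. In the class III homeodomain group, ATHB8 stood at 24.6 against 11.5 FPKM, but did not meet the rule with a pseudocount of 5. ZPR2, a small inhibitor of that class, stood at 49.8 against 21.98 FPKM, while REV, PHB and PHV did not meet the rule. None of 19 CLV and WOX genes did: WUS, which maintains stem cells, stood at 13.4 against 6.91 FPKM, a log2 difference of 0.87, and CLV3 at 9.14 against 8.80 FPKM. The microRNA precursor genes MIR171a at 31.5 against 7.12 FPKM and MIR319b at 12.7 against 5.69 FPKM were higher, while MIR171b at 10.4 against 23.1 FPKM and MIR394b at 3.58 against 10.6 FPKM were lower. All 4 were picked with their values known, and such short genes are estimated poorly in FPKM. Of 25 microRNA genes compared, 5 were higher (20%) and 4 lower (16%), against 1.19% and 2.38% of all genes compared.

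Among regulators of flowering time and inflorescence identity, lower values were found for single genes. TFL1 had 13.7 against 82.4 FPKM, and the bZIP genes FD and FDP, partners of FT and TFL1 proteins, at 65.7 against 159.9 FPKM and 36.4 against 86.0 FPKM. With them, 3 of 4 compared genes of that list were lower, against 2.38% of all genes compared. FT itself, the leaf-made flowering signal, stood at 4.75 against 0.714 FPKM, just under the level needed. Of the SPL genes, which promote phase change and flowering, SPL9 (33.3 against 72.9 FPKM) and SPL15 (5.56 against 16.2 FPKM) were the 2 of 14 that were lower, and TOE3, an AP2-like repressor of flowering, stood at 1.95 against 5.46 FPKM.

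The ALOG family, plant-specific DNA-binding proteins best known from boundaries and meristems, held the most negative difference of the 14935 nuclear protein-coding genes. LSH1 went from 123 to 7.58 FPKM, 16.2-fold lower, and had 2.26 FPKM in inflorescences. LSH4 had 12.8 FPKM after 72.4 FPKM and LSH3 54.5 FPKM after 149.6 FPKM. That makes 3 of 5 compared members lower, against 2.38% of all genes compared. LSH5 at 19.9 against 21.2 FPKM and LSH10 at 8.47 against 7.60 FPKM did not meet the rule. The other 5 of the 10 members stayed under 5 FPKM, with LSH2 at 0.0208 against 1.77 FPKM and LSH6 at 4.29 against 1.006 FPKM.

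All 4 FAF genes, which affect shoot meristem size, had lower values at day 2, and 2 met the rule. FAF3 stood at 7.05 against 51.4 FPKM and FAF1 at 8.75 against 22.4 FPKM, while FAF2 stood at 40.9 against 72.6 FPKM and FAF4 at 4.12 against 7.56 FPKM. With a pseudocount of 5 only FAF3 met it. The ROTUNDIFOLIA-like (RTFL) genes encode small peptides that reduce cell proliferation in organs when in excess. All 8 of 23 family members that could be compared had lower values, and 4 met the rule, led by RTFL13 at 20.02 against 91.6 FPKM and RTFL16 at 9.29 against 27.6 FPKM. RTFL12 at 32.7 against 68.5 FPKM and RTFL7 at 3.64 against 8.46 FPKM did so too, but not with a pseudocount of 5. The RTFL family was chosen after its values were seen. FTM1, a desaturase gene known from the floral transition, stood at 125 against 317 FPKM. TCP18 (BRC1), a repressor of bud outgrowth, stood at 4.12 against 9.99 FPKM, and its relative TCP1 at 4.95 against 10.7 FPKM missed the rule with -0.98.

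**Figure D2:**
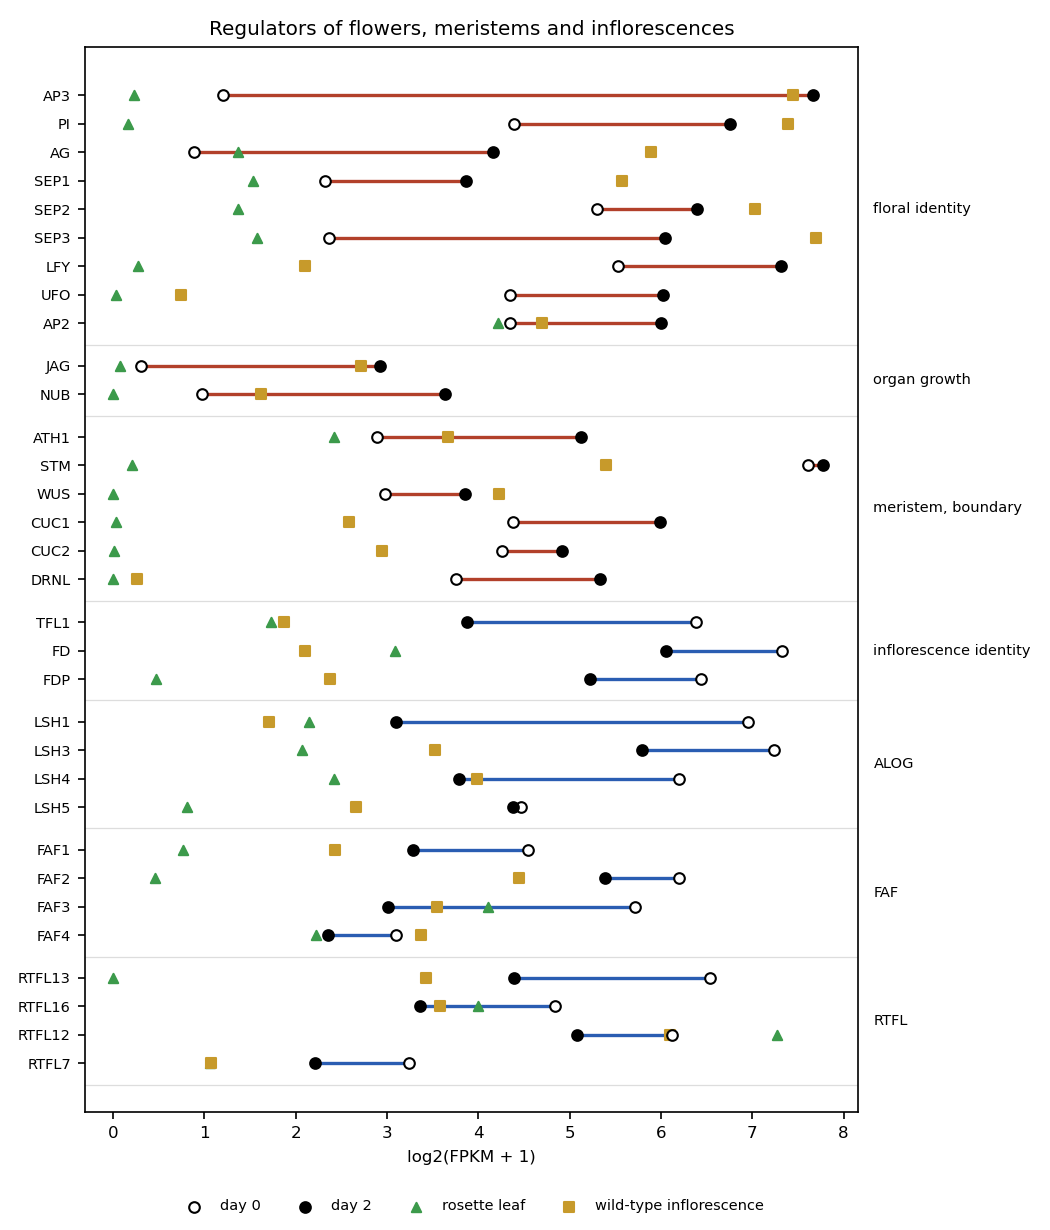
Level of named regulators as log2(FPKM + 1), with day 0 as open circles, day 2 as filled circles, rosette leaves as triangles and wild-type inflorescences as squares; red lines join genes with higher and blue lines genes with lower values at day 2. LFY, UFO and DRNL lie highest at day 2, whereas SEP3, PI and AG lie highest in inflorescences.

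Of 33 compared genes of phosphate status 8 were higher at day 2, against 1.19% of all genes compared. Of the 8, 6 met the rule with a pseudocount of 5, and 10 of the 33 had negative differences. Plants short of phosphate switch on uptake, phosphate release and the replacement of phospholipids, largely through the MYB factor PHR1, which binds the P1BS motif GNATATNC, while SPX proteins report the phosphate status. The non-coding RNA gene AT5G03545, which the reference describes as induced by phosphate starvation, had 75.2 against 9.15 FPKM, 8.22-fold more, with 1.33 FPKM in leaves and 2.35 FPKM in inflorescences. The reference lists it as protein-coding. PS2, a phosphatase gene, stood at 46.9 against 9.46 FPKM, and SPX1 at 152 against 38.8 FPKM. The values of SPX1 in leaves and inflorescences were 10.7 and 19.4 FPKM, both under those of the apices.

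The 33 came from a list of 55 genes, and their median log2 difference was 0.51, against -0.004 over all genes compared. The list was made after the values were seen, so its count describes these values only. The remaining 5 were SRG3, a glycerophosphodiesterase gene, at 105 against 26.9 FPKM, the uptake transporter PHT1;4 at 16.7 against 5.68 FPKM, the galactolipid synthase MGD2 at 15.6 against 6.33 FPKM, the permease G3Pp1 at 57.5 against 25.2 FPKM and the regulator MYB62 at 6.49 against 2.16 FPKM. MGD2 and MYB62 did not meet the rule with a pseudocount of 5. The acid phosphatase gene PAP17 stood at 99.0 against 51.0 FPKM, a log2 difference of 0.94, and SQD1 and SQD2, which make sulfolipid, at 60.9 against 39.1 FPKM and 19.1 against 13.1 FPKM. PHR1 itself (AT4G28610) stood at 35.6 against 38.1 FPKM, and PHO1;H1, PAP10 and GDPD2 had lower values without meeting the rule. SPX3 at 4.95 against 1.69 FPKM stayed just under the level needed. An iron and phosphate list, chosen with earlier results known but not after these values, held 9 compared genes. Its highest difference, 2.195, is that of PS2, so it overlaps with the phosphate list and is no separate measure of it. Of these 9, 2 were higher and none lower, against 1.19% higher over all genes compared. Negative differences were found for 4 of the 9, and the median was 0.03.

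The P1BS motif was found before the annotated start of 4 of the 8 higher phosphate genes (50%) and of 7 of the 33 compared (21.2%), against 5.25% of all 14946 windows of genes compared, 7.74% of those of higher and 7.72% of those of lower genes. Since the list holds genes known from phosphate starvation in other studies, the share describes that list and no factor. The 4 windows are given from the same reference, with the motif in capitals: PS2 at chr1:27466349-27466598 (minus strand), SRG3 at chr3:350011-350260 (minus strand, 2 motifs), AT5G03545 at chr5:894332-894581 (plus strand) and MGD2 at chr5:6896213-6896462 (plus strand).
PS2: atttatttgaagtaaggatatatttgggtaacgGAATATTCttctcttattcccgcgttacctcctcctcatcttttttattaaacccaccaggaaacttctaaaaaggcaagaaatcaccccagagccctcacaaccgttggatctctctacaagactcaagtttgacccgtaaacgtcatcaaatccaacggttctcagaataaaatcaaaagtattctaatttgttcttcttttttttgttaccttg
SRG3: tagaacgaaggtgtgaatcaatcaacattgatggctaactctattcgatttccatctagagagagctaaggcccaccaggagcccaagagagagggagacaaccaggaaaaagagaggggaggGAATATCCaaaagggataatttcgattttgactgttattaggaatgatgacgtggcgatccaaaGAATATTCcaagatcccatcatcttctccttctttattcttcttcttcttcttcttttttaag
AT5G03545: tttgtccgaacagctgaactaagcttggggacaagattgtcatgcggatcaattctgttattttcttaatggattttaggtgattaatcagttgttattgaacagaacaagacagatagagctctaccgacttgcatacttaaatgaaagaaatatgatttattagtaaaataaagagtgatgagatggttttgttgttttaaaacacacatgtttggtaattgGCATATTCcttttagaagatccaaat
MGD2: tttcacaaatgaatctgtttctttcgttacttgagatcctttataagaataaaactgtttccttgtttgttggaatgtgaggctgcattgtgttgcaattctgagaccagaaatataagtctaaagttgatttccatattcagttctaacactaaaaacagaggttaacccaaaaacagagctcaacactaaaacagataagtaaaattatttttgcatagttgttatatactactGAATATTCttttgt

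The motif of MGD2 begins 14 bases before the start and that of PS2 217 bases before it, so their place differed among the genes. Of 7 boron transport genes only BOR1 and NIP5;1 could be compared. BOR1, which loads boron into vessels, stood at 58.5 against 18.7 FPKM, and the boric acid channel gene NIP5;1 at 37.0 against 17.2 FPKM, the latter not with a pseudocount of 5. Both were higher by the rule, against 1.19% of all genes compared, in a list made after the values were seen. Under 5 FPKM, BOR5 with 0.190 against 0.660 FPKM and NIP6;1 with 2.65 against 3.63 FPKM had lower values at day 2. So had BOR2 with 3.71 against 3.82 FPKM and BOR4 with 0.00713 against 0.0173 FPKM, while NIP7;1 had a higher one with 0.438 against 0.147 FPKM. SWEET1, a sugar carrier gene, was 9.77-fold higher at 64.5 against 6.61 FPKM, the only 1 of 9 compared sugar carriers of the SWEET and SUC families to meet the rule. GPT2, which moves glucose phosphate into plastids, stood at 28.7 against 7.38 FPKM.

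Of 22 compared nitrate genes 4 were lower and none higher, and 5 had positive differences. Over all genes compared, 2.38% were lower. LBD38 and LBD39, nitrate-induced repressors, stood at 4.25 against 11.9 FPKM and 7.85 against 49.1 FPKM, and the scaffold genes BT2 and BT5 at 2.04 against 8.60 FPKM and 4.11 against 31.8 FPKM. These were the 4 of 22 nitrate genes to meet the rule, 2 of which, LBD39 and BT5, did so with a pseudocount of 5. The nitrate reductase genes NIA1 and NIA2 stood at 3.77 against 6.79 FPKM and 6.13 against 9.41 FPKM. In all, 17 of the 22 had negative differences, with a median of -0.53, against -0.004 over all genes compared.

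Of 20 sugar and low-energy genes, 6 were lower and 1 was higher, against 2.38% lower and 1.19% higher over all genes compared. The lower ones included DIN10, a raffinose-family gene induced in darkness, at 11.1 against 47.7 FPKM, whose relative SIP2, outside the list, had 69.4 against 364 FPKM. SEN1 (AT4G35770) stood at 2.61 against 12.2 FPKM, the trehalose phosphatase gene TPPJ at 21.7 against 54.6 FPKM and the dormancy-associated gene DRM1 at 239 against 482 FPKM. The other 2 lower genes and the higher one act on inositol: MIOX4 stood at 0.203 against 11.7 FPKM and MIOX2 at 5.21 against 21.9 FPKM, both inositol oxygenases, while MIOX1, which did not meet the rule with a pseudocount of 5, stood at 5.61 against 1.05 FPKM and the inositol synthase gene MIPS2 at 177 against 61.3 FPKM. The proline dehydrogenase gene ERD5 stood at 18.4 against 79.5 FPKM. AT3G15450, a gene with YGL and LRDR motifs, had the highest level of any lower gene, with 1025 FPKM before and 160 FPKM after dexamethasone. The summed mesophyll markers also stood lower at day 2, as given above, and their part in these differences was not tested.

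**Figure D3:**
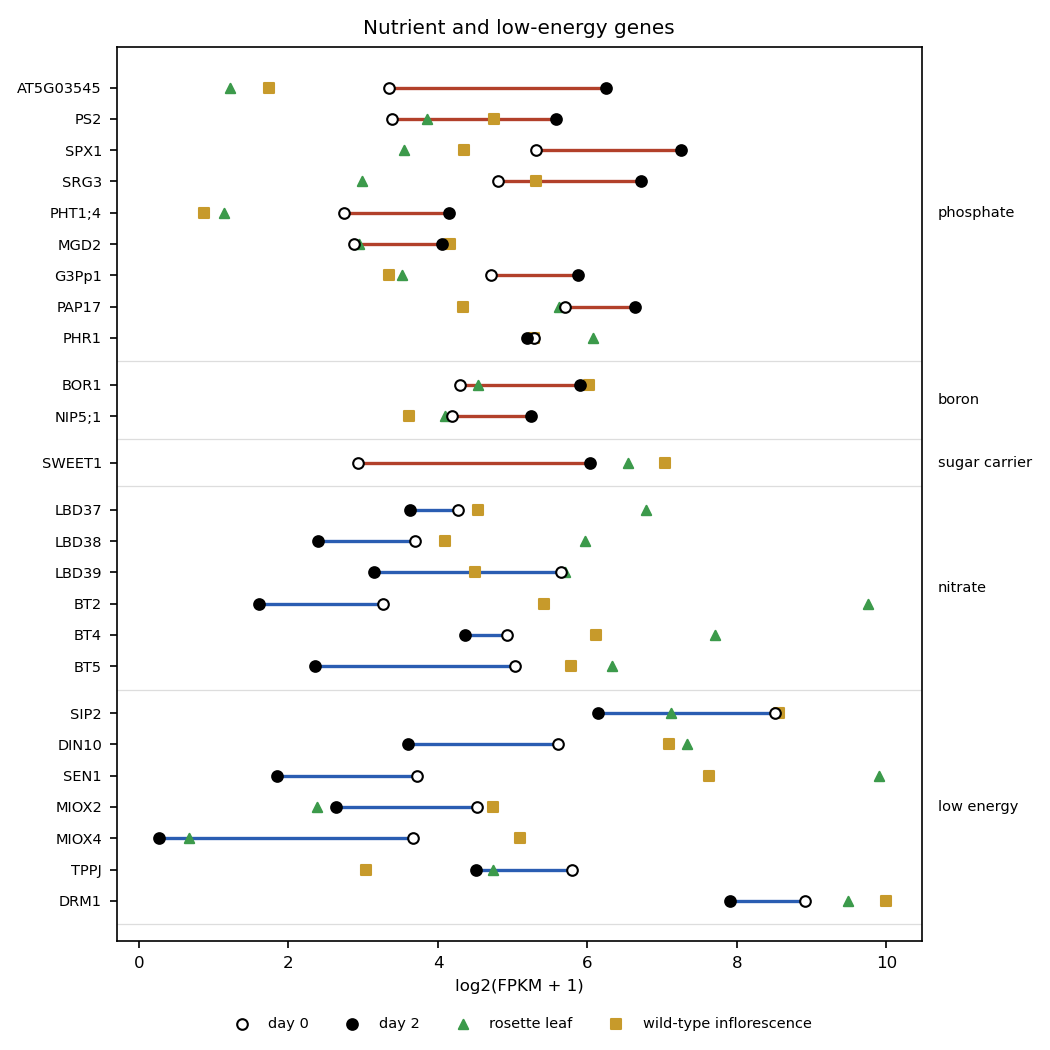
Level of phosphate, boron, sugar carrier, nitrate and low-energy genes as log2(FPKM + 1), with symbols as in the plot of regulators. AT5G03545, SPX1, SRG3 and PHT1;4 lie highest at day 2 of all groups, whereas BT2, SEN1 and MIOX4 lie lowest there.

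Of 9 gibberellin oxidase genes 1 was higher and 1 lower. GA3OX1, which makes active gibberellin, stood at 18.16 against 0.5035 FPKM, 36.1-fold higher, while GA20OX1, which acts a step earlier, stood at 1.96 against 8.06 FPKM and did not meet the rule with a pseudocount of 5. GA2OX1, which inactivates gibberellin, stood at 4.81 against 0.0610 FPKM, just under the level needed. RGL2, a DELLA repressor gene, stood at 12.5 against 2.97 FPKM, the only 1 of 12 gibberellin signalling genes to meet the rule.

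For cytokinin, LOG5 and LOG3, enzymes that release the active hormone, stood at 458 against 191 FPKM and 5.07 against 0.830 FPKM, and LOG5 had the highest day 2 level of any higher gene. The type-A response regulators, which cytokinin induces and which dampen its signal, had lower values in all 5 compared members. ARR7 (42.5 against 94.3 FPKM) met the rule, as did ARR15 (5.06 against 11.5 FPKM), ARR15 not with a pseudocount of 5.

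For auxin, 2 of 21 Aux/IAA genes were higher, IAA14 with 5.29 against 1.76 FPKM and IAA1 with 14.0 against 6.37 FPKM, neither with a pseudocount of 5. The conjugating enzyme genes GH3.6 and GH3.17 stood at 7.19 against 25.5 FPKM and 6.95 against 17.8 FPKM, whereas GH3.3 stood at 37.1 against 18.4 FPKM. With a pseudocount of 5, GH3.17 did not meet the rule. None of 14 ARF genes met the rule.

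The abscisic acid receptors PYL5 and PYL4 stood at 2.47 against 17.5 FPKM and 40.3 against 106 FPKM, and CYP707A3, which breaks the hormone down, at 2.16 against 14.4 FPKM. SNRK2.7, a kinase gene, and ABI5, a bZIP gene, stood at 7.73 against 0.444 FPKM and 10.4 against 2.08 FPKM. These were the 2 higher and 3 lower of 31 abscisic acid genes, a list made after values were seen. Over all genes compared, 1.19% were higher and 2.38% lower. Of the 31, 20 had negative differences, with a median of -0.146. None of 12 brassinosteroid genes met the rule.

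Of 18 touch and wounding genes, 8 were lower and none higher, 17 had negative differences and the median was -0.96. Over all genes compared, 2.38% were lower and the median was -0.004. WRKY33 stood at 19.7 against 56.5 FPKM, ERF6 at 10.7 against 25.8 FPKM, the calmodulin-like gene TCH3 at 115 against 237 FPKM and the zinc-finger gene STZ at 30.2 against 62.5 FPKM. With a pseudocount of 5, 4 of the 8 met the rule. Of 11 heat and cold genes the 4 lower ones were cold-regulated: COR15A stood at 15.6 against 34.5 FPKM, COR15B at 21.0 against 47.3 FPKM, COR78 at 5.86 against 16.6 FPKM and KIN1 at 27.3 against 68.3 FPKM. COR15A and COR78 did not meet the rule with a pseudocount of 5. Outside the list the cold-regulated gene COR413IM1, chosen after its value was seen, was higher at 10.9 against 3.29 FPKM. The cold regulators CBF1 and CBF2, at 1.579 against 5.29 FPKM and 1.696 against 5.86 FPKM, were among the 8 of the touch list. The heat factor gene HSFA2 stood at 49.4 against 27.7 FPKM and did not meet the rule.

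In the defence list WRKY70 at 78.9 against 196 FPKM, WRKY18 at 30.2 against 73.6 FPKM and CBP60G at 1.63 against 5.30 FPKM were the 3 lower of 12 genes. CBP60G did not meet the rule with a pseudocount of 5. Over all genes compared, 2.38% were lower. In the jasmonate lists LOX3 at 12.2 against 29.4 FPKM and LOX4 at 7.85 against 22.5 FPKM, which start its synthesis, and the repressors JAZ5 and JAZ8 at 28.2 against 58.7 FPKM and 2.499 against 11.4 FPKM were lower. The other 8 synthesis genes and 9 JAZ genes did not meet the rule, and JAZ5 did not with a pseudocount of 5. Handling and the hour of harvest, to which such genes respond, are not labelled, and their part was not tested. Of 16 clock genes 15 had negative differences, with a median of -0.28, against -0.004 over all genes compared. Of these PRR5 at 6.53 against 16.0 FPKM met the rule, though not with a pseudocount of 5.

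Of 15 flavonoid genes 4 were lower and none higher, against 2.38% lower over all genes compared. Positive differences were found for 10 of the 15, and the median was 0.31, against -0.004 over all genes compared. Lower were LDOX at 0.522 against 8.19 FPKM and DFR at 0.536 against 7.35 FPKM. So were the transfer protein gene TT19 at 4.87 against 20.3 FPKM and the repressor MYBL2 at 0.813 against 5.80 FPKM. MYBL2 did not meet the rule with a pseudocount of 5. Outside the list PAL3, an early phenylpropanoid gene, was lower too, at 3.27 against 12.4 FPKM, and was chosen after its value was seen. The early enzyme gene CHS stood at 596 against 392 FPKM, the flavonol synthase gene FLS1 at 171 against 113 FPKM and their regulator MYB111 at 12.1 against 5.71 FPKM, none of which met the rule. In the trichome list the single-repeat MYB repressors went apart: ETC3 stood at 14.0 against 1.43 FPKM and TRY at 10.9 against 3.89 FPKM, but CPC at 12.0 against 25.2 FPKM. GL2 at 1.699 against 6.07 FPKM and TTG2 at 3.79 against 12.8 FPKM, which promote trichomes, were lower. Only ETC3 and TTG2 met the rule with a pseudocount of 5.

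Of 23 chlorophyll and antenna genes, 22 had negative differences and the median was -0.50, against -0.004 over all genes compared. Only GLK2, a chloroplast regulator, met the rule with 6.49 against 15.1 FPKM, and not with a pseudocount of 5. LHCB3 stood at 166 against 274 FPKM and PORB at 180 against 293 FPKM. CA2, a carbonic anhydrase gene, stood at 7.27 against 43.2 FPKM. The mesophyll markers overlap with this list, so they are no separate measure of it.

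Several lists of basic cell functions held no called gene, where 3.57% of all genes compared were called. For lists this short, none called is near that share and sets no list apart. The lists were the 12 DNA replication genes, all between 0.06 and 0.53, and the 12 DNA methylation genes, between -0.465 and 0.283. With them came 19 Polycomb and Trithorax genes between -0.28 and 0.12. The others were 17 small RNA genes, 23 epidermis and cuticle genes and 9 inhibitors of cyclin-dependent kinases. Of 23 cyclins and their kinases 20 had positive differences with a median of 0.15, and CYCD6;1, a D-type cyclin, met the rule at 12.2 against 4.13 FPKM but not with a pseudocount of 5. The 10 reference genes had a median of -0.001, and all genes compared had one of -0.004.

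**Figure D4:**
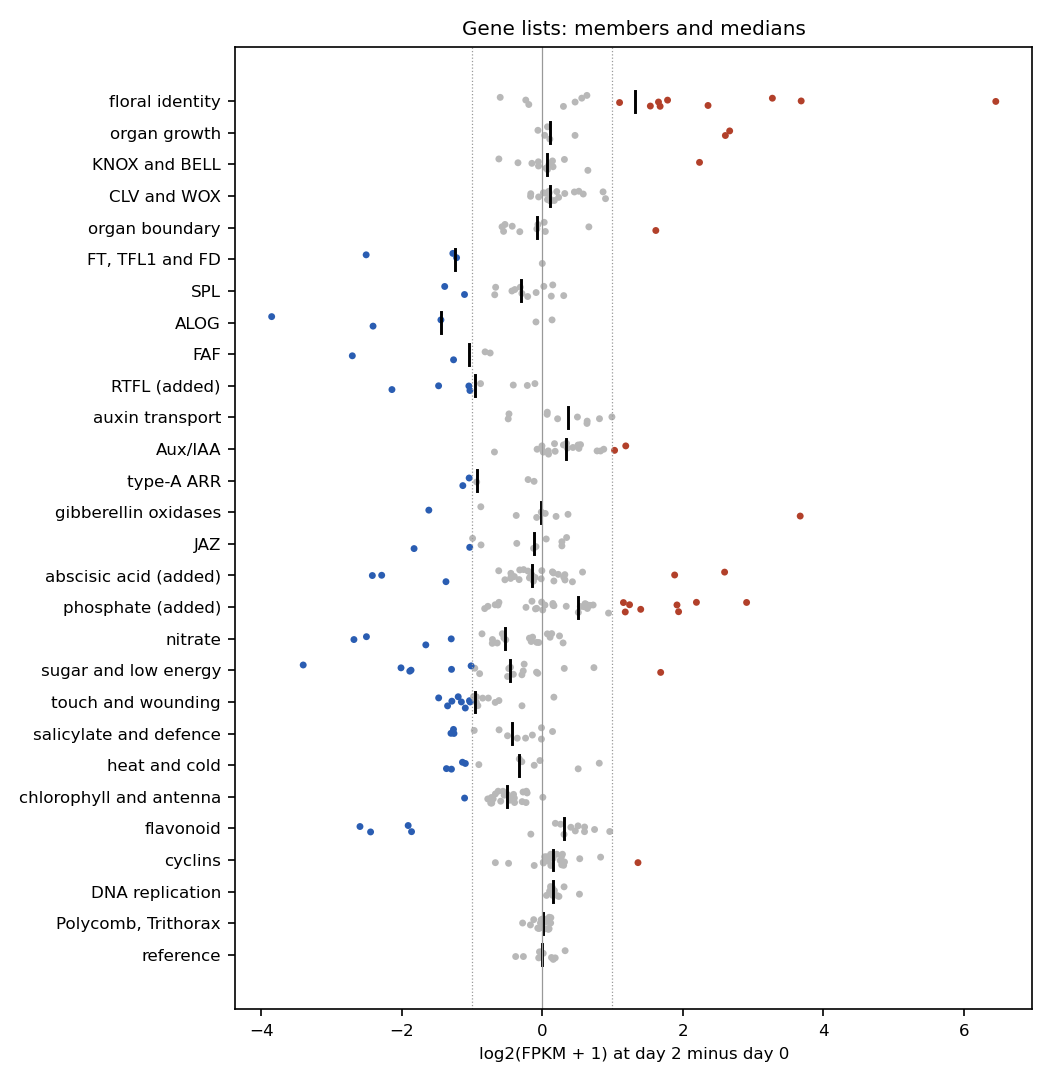
Difference of log2(FPKM + 1), day 2 minus day 0, for the compared members of 28 gene lists, with 1 point per gene, black bars at the median and dotted lines at -1 and 1. The floral identity median lies at 1.32 and the ALOG median at -1.44, while replication, Polycomb and reference genes lie near 0.

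Among the wall genes, XTH24, a xyloglucan-modifying enzyme gene, stood at 28.6 against 4.69 FPKM and the expansin EXPA5 at 10.3 against 3.64 FPKM. XTH28 at 22.2 against 65.4 FPKM and EXPA10 at 35.9 against 92.1 FPKM were lower. EXPA5 did not meet the rule with a pseudocount of 5. GSTF6 and GSTU20, glutathione transferase genes, stood at 6.13 against 29.3 FPKM and 76.0 against 174 FPKM, and GSTU7 at 38.9 against 15.0 FPKM. Of genes without a symbol, AT1G47610, a WD40-repeat gene, was 157-fold higher at 11.7 against 0.0744 FPKM. AT2G42885, a defensin-like gene, stood at 67.1 against 3.55 FPKM, and AT5G22430, of a pollen allergen family, at 45.9 against 3.67 FPKM and at 822 FPKM in inflorescences. On the lower side were AT1G56150, a SAUR-like gene, at 2.54 against 20.3 FPKM and AT1G68570, a transporter-like gene, at 9.04 against 47.8 FPKM.

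Some calls rest on values listed at 0, which can be failed estimates. Of the higher genes 20 and of the lower genes 27 were listed at 0 in the other group, and only 4 and 8 of these were nuclear protein-coding. CAT3, a catalase gene, is listed at 0 in all groups but day 2, where it stood at 335 FPKM, and AT4G32330 and AT1G15280 are listed at 0 at day 0 but stood at 49.6 and 33.1 FPKM in leaves. Among 27 tRNA genes, 9 were called higher and 9 lower, and among 52 snoRNA genes 6 and 9, against 1.19% and 2.38% of all genes compared. At the level needed to be compared, ADF11 with 4.39 and 5 FPKM and AT3G48200 with 5 and 3.36 FPKM lay just inside, and AT1G51405 with 2.97 and 4.996 FPKM and AT5G45276 with 4.99 and 4.42 FPKM just outside.

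Of the other motifs searched on both strands of the same windows, the G-box CACGTG was in 11% of windows of higher genes, 7.72% of lower genes and 7.62% of all compared. The W-box TTGACC or TTGACT was in 23.9%, 33.6% and 27.2%, the core GTAC in 40%, 37.3% and 34.4%, and the auxin response element TGTCTC in 14.2%, 12% and 10.4%. The evening element AAAATATCT was in 3.23%, 4.32% and 2.59%, and the E2F sites TTTCCCGC, TTTCGCGC, TTTGCCGC and TTTGGCGC in 2.58%, 0.309% and 1.55%. These shares describe the windows and were not tested.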

How the data were processed

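RNA of 4 groups of 3 libraries each was measured by stranded poly(A) RNA-seq, per the labels. The authors deposited 1 value per gene and group. The unit, FPKM, was inferred from the values and from Cufflinks in the submitters' processing notes, which name CASAVA 1.8.2, Bowtie2 2.1.0, TopHat2 2.0.10, Cufflinks 2.1.1 and build TAIR10. The annotation, the strand setting, the merging of libraries and how groups were scaled to each other are not given here, and read depth is unknown. Near-identical copies can share reads. The 1141 rows of 567 repeated identifiers were summed (6 of these genes were compared). With 1 value per group no test was possible, so the planned rule of size for merged values was applied, with a pseudocount of 1, a minimum of 5 FPKM and a log2 limit of 1. Names, windows and transcript lengths came from RefSeq (assembly TAIR10.1, 15280 of 15355 genes found); its coordinates are not those of the authors' build. The analysis used Python 3.11.15, pandas 2.3.3 and numpy 2.4.6. The comparison, the 55 lists and the named genes were chosen with earlier results of these data known, and 6 further lists (phosphate, boron, RTFL, abscisic acid, purine permeases and UMAMIT carriers) and the P1BS motif after the values had been seen. Named genes were AP1, CAL, the highest and lowest differences and levels, genes at the minimum, genes listed at 0 and members of the lists; Some items are not reported here. Other genes are marked as chosen after their values were seen.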

Additional observations from a re-analysis of the deposited data

How the results depend on the processing

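With a pseudocount of 5 in place of 1, 113 genes were higher, 204 lower and 2.06% called. Without a minimum level 277 were higher and 2.26% of the 33559 genes were called. A limit of 1.5-fold gave 465 higher and 881 lower genes (8.77%), and a limit of 3-fold gave 88 and 123 (1.37%). A pseudocount of 0.1, both rescalings of day 2, a minimum of 10 FPKM, leaving out repeated identifiers, nuclear protein-coding genes above 0 in both and transcripts of 500 nt or longer gave 135 to 218 higher and 286 to 424 lower genes (3.13% to 4.18%). Of 168 genes named by rule or in lists and called, 44 no longer met the rule with a pseudocount of 5. Among them were YAB2, GRF4, TOE3, TCP18, CBF1, CBF2, CYCD6;1 and LOG3. With day 2 rescaled to the upper quartile of day 0, 1 gene, DRM1, no longer met it. Pseudocounts cannot change a sign, and the rescaling factors of day 2, 1.0106 (upper quartile) and 1.0031 (median), were close to 1. No paired analysis was possible because each group has a single merged value, and for the same reason no library could be left out. Differences that rest on a few FPKM depend on the pseudocount.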

Other observations

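Purine permeases and UMAMIT carriers, families chosen after their values were seen, held further called genes. Of 7 compared purine permeases, PUP4 at 36.5 against 8.25 FPKM and PUP1 at 7.25 against 2.57 FPKM were higher at day 2, whereas PUP18 at 1.33 against 7.36 FPKM, PUP7 at 1.52 against 5.84 FPKM and PUP14 at 104 against 218 FPKM were lower. With a pseudocount of 5, PUP4 and PUP14 were the 2 that met the rule. Of 15 compared UMAMIT carriers, which export amino acids, UMAMIT11 at 10.6 against 0.771 FPKM and UMAMIT22 at 7.04 against 1.41 FPKM were higher and none was lower, and UMAMIT22 did not meet the rule with a pseudocount of 5.

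In 4 places a long non-coding RNA gene and an overlapping protein-coding gene on the opposite strand were called in the same direction; these pairs were chosen after their values were seen. The wall linker protein gene CWLP stood at 99.1 against 366 FPKM and AT3G22121 at 83.9 against 336 FPKM. XYL4, a xylosidase gene, stood at 7.73 against 22.5 FPKM and AT5G64572 at 33.9 against 100.3 FPKM. The laccase gene LAC6 stood at 6.29 against 1.281 FPKM with AT2G46572 at 18.9 against 5.25 FPKM. AT2G46572 also overlaps AT2G46567 on its own strand, which stood at 134.5 against 118.7 FPKM and did not meet the rule. UGT74D1 stood at 10.15 against 3.173 FPKM with AT2G31751 at 8.16 against 2.66 FPKM. In a further pair on opposite strands AT5G59732 was lower, at 11.92 against 30.15 FPKM. Its partner EXO70H7, at 10.32 against 17.38 FPKM, did not meet the rule. Of 89 long non-coding RNA genes compared, 2 were higher (2.25%) and 3 lower (3.37%). Library preparation kept the strand, but the strand setting of the counting is not given in the sources used here, so the values of each pair are uncertain.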
